A study of Mus musculus with 8 samples.

Results

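Genes of mitosis and of the G2/M transition were followed in mouse small intestine across 4 treatments. The set was a list of 42 genes chosen by function, from cyclins and mitotic kinases to kinetochore, spindle, cytokinesis and chromosome proteins. All probe sets annotated to a listed gene alone were taken, which gave 73 probe sets for 41 genes out of 22690 probe sets and 12393 named genes on the array. Ccnb1 had no such probe set and was not analysed here. The brightest probe set on average stood for its gene, and 35 of the 41 had a mean signal high enough to be tested, against 8094 of all named genes. The 6 that stayed below were Cdc25c, Nek2, Ndc80, Cenpe, Ttk and Kif20a, and their signals are described without a test.

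The tissue came from female C57/Black6 mice aged 6 weeks that were injected intraperitoneally once a day for 5 days. Vehicle mice received dimethyl sulfoxide, and dexamethasone mice that glucocorticoid at 15 mg/kg. DBZ, which inhibits gamma-secretase, was given at 10 umol/kg, and combination mice received both drugs at these doses. The labels give 2 replicates in each group without saying that they are separate mice, and the pair of DBZ columns held the same values in 22684 probe sets and differed in 6, none of them of a listed gene, so they were counted as 1 array. This left 7 arrays: 2 each of vehicle, dexamethasone and the combination (n = 2), and 1 of DBZ (n = 1). The p-values measure only the spread between the 2 arrays of vehicle, of dexamethasone and of the combination, since 1 DBZ array shows none. The segment of intestine is not given, and each sample was whole tissue, so that crypts, villi, muscle and immune cells were measured together.

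In the intestinal epithelium, division is confined to the crypts. There, stem cells and the transit-amplifying progenitors above them cycle before their daughters differentiate and move onto the villus. Notch signalling, which needs gamma-secretase to release the active part of the receptor, keeps these progenitors from turning into secretory cells, and Notch blockade is known to deplete the dividing compartment and enlarge the goblet cell population. Cells that enter mitosis raise a large set of transcripts together: cyclins A and B activate Cdk1, the Aurora and Polo kinases assemble the spindle, the spindle checkpoint waits until every kinetochore is attached, and the anaphase-promoting complex then ends mitosis by degrading cyclin B and securin. In whole tissue, fewer dividing cells and less mitotic RNA per cell cannot be told apart.

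Signals are MAS5 intensities scaled here to a trimmed mean of 250 on every array. A log2 change is a difference of log2(signal + 12.3), which understates the change of dim genes. "Lower", "fell" and "called" are used with a test only for an adjusted p under 0.05 (limma, Benjamini-Hochberg over 13638 probe sets). The vehicle arrays stood apart before any gene was examined, since their deposited trimmed mean was 500 against 250 on all other arrays. Signal at the 3' end over that at the 5' end, which rises with RNA degradation, reached 1.80 (Gapdh) and 2.17 (beta-actin) in the DBZ array, while the other arrays lay between 0.905 and 1.22 and between 1.22 and 1.79. Enterocyte markers were present on all arrays, with summed signals over 14 genes of 81131 to 134972.

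The mitotic genes formed a common pattern over the arrays: similar levels with vehicle and with dexamethasone, the lowest with DBZ, and levels between these with the combination. Relative to the vehicle mean, the median over the 41 genes was 0.21 and -0.21 (log2) in the vehicle arrays, -0.10 and 0.16 in the dexamethasone arrays, -1.06 in the DBZ array, and -0.75 and -0.24 in combination replicates 1 and 2. The median over all named genes ranged only from -0.11 to 0.02 on the same arrays. The DBZ array held the lowest of the 7 signals for 23 of the 41 genes, where 16.8% of all named genes had their lowest signal there. Together with combination replicate 1, which was lowest for 14, it accounted for 37, against 33.5% of all named genes.

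**Figure D1:**
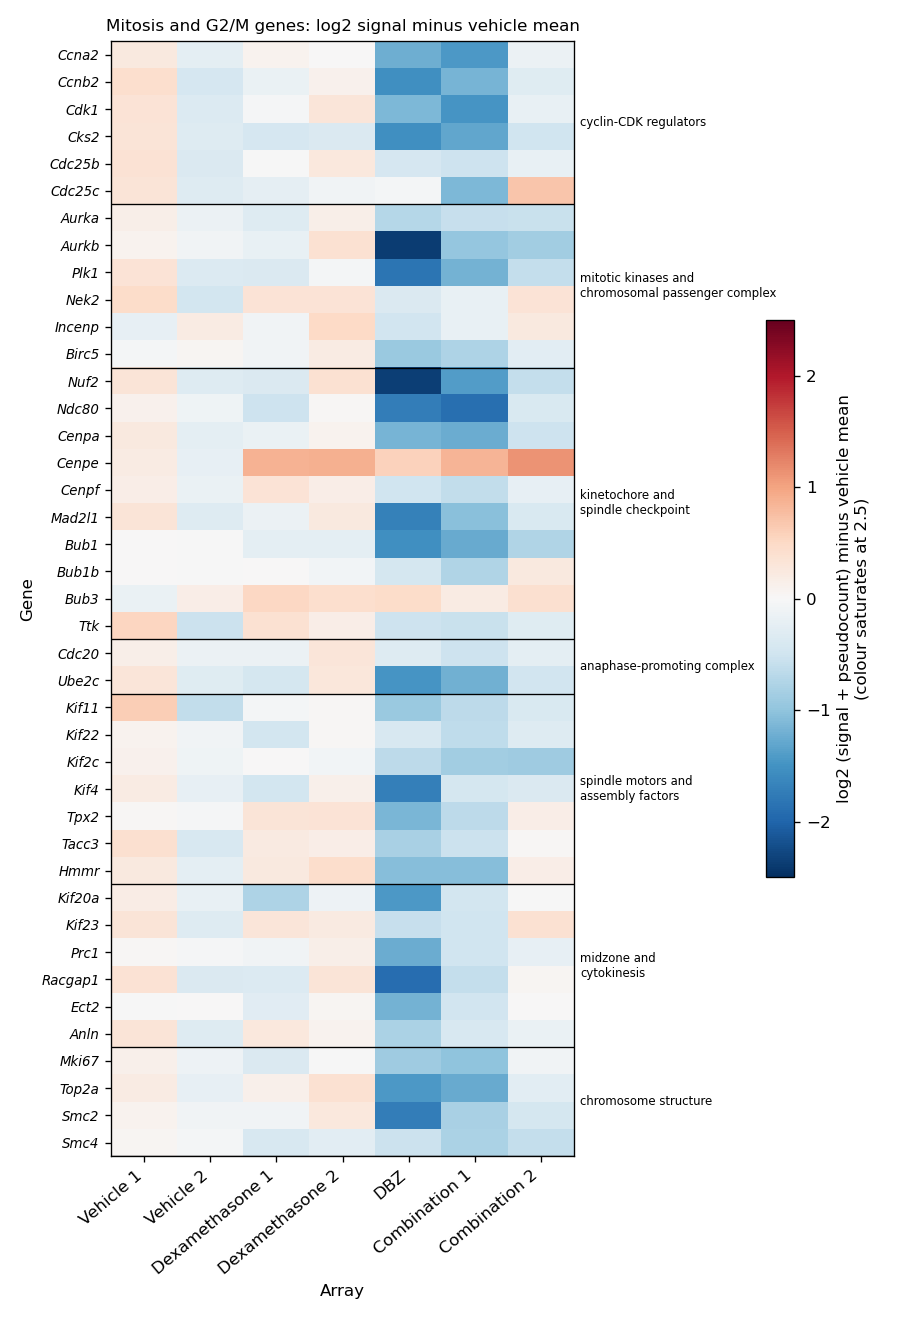
Each row is a gene, grouped by role, and each column an array; colour gives log2(signal + pseudocount) minus the mean of the vehicle arrays. Blue fills the DBZ and combination 1 columns in nearly all rows, while Cenpe and Bub3 are red in the DBZ column.

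**Figure D2:**
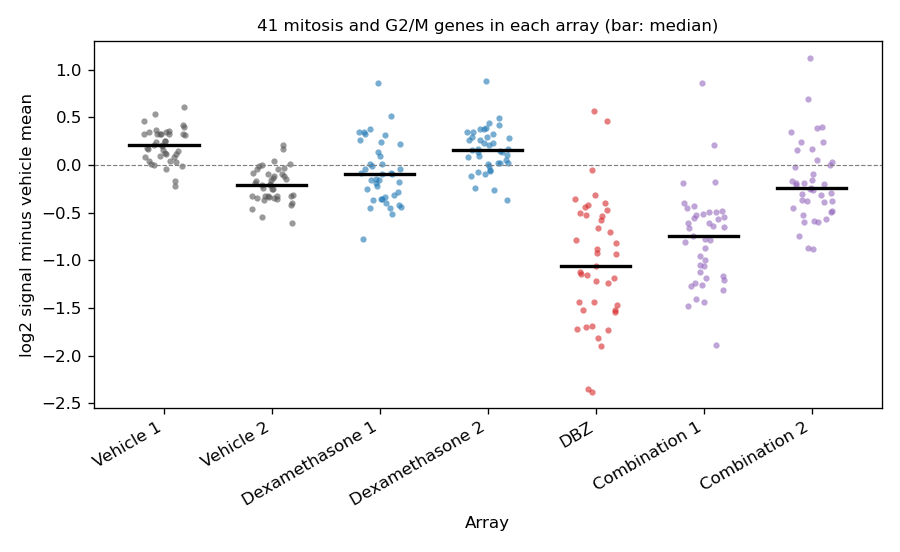
Each point is 1 of the 41 genes in 1 array, plotted as log2 signal minus the vehicle mean, and the black bar is the median of the array. The median lies at -1.06 in the DBZ array, at -0.75 and -0.24 in the combination arrays, and between -0.21 and 0.21 in the vehicle and dexamethasone arrays.

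DBZ against vehicle gave the most calls. Of the 35 tested genes 12 fell and 0 rose, where 3.89% of all tested genes fell and 3.94% rose. The log2 change was negative for 34 of the 35, with a median of -1.12 against -0.02 over all tested genes. Over all 41 genes, tested or not, the median was -1.06. The DBZ signal lay below both vehicle signals for 36 of 41 genes, against 40.7% of all named genes. The log2 change was negative for 39 of the 41, and for 6569 of all 12393 named genes. Of the 73 probe sets, 70 were below their vehicle mean in the DBZ array, a count not made over all probe sets.

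Of the 4 chromosome structure genes 2 fell, Smc2 and Top2a. Smc2, the condensin ATPase that compacts chromosomes, had signals of 164 and 145 with vehicle, 145 and 187 with dexamethasone, 38.1 in the DBZ array, and 82.5 and 110 under the combination. Its DBZ signal stood below all the others, and both combination signals stood below every vehicle and dexamethasone signal. It fell by 1.72 ± 0.29 on the log2 scale in DBZ against vehicle (SE, 1 array against 2, adjusted p = 0.0105). Top2a, the topoisomerase that untangles sister chromatids, had 475 and 351 with vehicle, 449 and 538 with dexamethasone, 143 in the DBZ array, and 163 and 341 under the combination. Top2a fell by 1.44 ± 0.37 (adjusted p = 0.0441), and combination replicate 1 lay near the DBZ array while replicate 2 lay near the vehicle range. Mki67, the coat protein of mitotic chromosomes used as a marker of proliferation, had 729 and 606 with vehicle, 516 and 659 with dexamethasone, 356 in the DBZ array, and 327 and 624 under the combination. Its change of -0.88 ± 0.34 did not pass (adjusted p = 0.138). Smc4, the other condensin ATPase, had 507 and 475, 369 and 407, 335, and 279 and 319 in the same order of groups, with -0.54 ± 0.21 (adjusted p = 0.148). By this probe set all treated arrays lay below vehicle, while in each of its other tested probe sets 1 dexamethasone array lay above the lower vehicle array.

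The mitotic kinases and the chromosomal passenger complex, which corrects faulty attachments of chromosomes to the spindle, were next. Aurkb, the kinase of that complex, had 62.7 and 53.8 with vehicle, 49.4 and 79.4 with dexamethasone, 1.25 in the DBZ array, and 24.0 and 26.3 under the combination. It fell by 2.38 ± 0.41 (adjusted p = 0.0111). The DBZ signal lies under the pseudocount of 12.3, so the size of the change depends on it: -4.72 with a pseudocount of 1 and -1.44 with 32. Its other probe set, too dim to test, had 71.7 and 33.3 with vehicle and 15.8 with DBZ, which is 30.1% of the vehicle mean. Plk1, the Polo kinase of mitotic entry and spindle assembly, had 156 and 91.8 with vehicle, 91.1 and 115 with dexamethasone, 25.2 in the DBZ array, and 45.9 and 75.5 under the combination, and fell by 1.82 ± 0.39 (adjusted p = 0.024). Birc5 (survivin), which targets the complex to centromeres, had 305 and 323, 294 and 366, 160, and 179 and 260, with a change of -0.92 ± 0.27 that did not pass (adjusted p = 0.064). Aurka, the kinase of centrosomes and spindle poles, had 138 and 110, 96.4 and 137, 70.8, and 79.0 and 79.2, and did not pass either (-0.70 ± 0.31). Incenp, the scaffold of the complex, had 165 with DBZ against 200 and 273 with vehicle (-0.47 ± 0.32), and by its other tested probe set 17.7 against 60.6 and 74.7 (-1.41 ± 0.41, adjusted p = 0.0648); neither passed. Nek2, the centrosome-splitting kinase, had 23.9 with DBZ, inside the vehicle range of 21.3 to 51.7.

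At the kinetochore, the genes of the microtubule-binding outer layer were near the floor in the DBZ array. Nuf2, a subunit of the Ndc80 complex that grips microtubules, had 85.7 and 49.8 with vehicle, 48.2 and 89.4 with dexamethasone, 2.98 in the DBZ array, and 17.2 and 39.3 under the combination. It fell by 2.35 ± 0.51 (adjusted p = 0.0243), and the change was -4.06 with a pseudocount of 1 and -1.49 with 32. Ndc80, its partner in the same complex, was too dim to test and had 45.2 and 36.8, 24.8 and 41.6, 3.65, and 2.02 and 28.3. Mad2l1, the checkpoint protein that holds back Cdc20, had 245 and 151 with vehicle, 173 and 229 with dexamethasone, 51.4 in the DBZ array, and 86.9 and 145 under the combination, and fell by 1.69 ± 0.37 (adjusted p = 0.0253). Its signals did not overlap between the DBZ or combination arrays and the vehicle or dexamethasone arrays. Bub1, the checkpoint kinase of kinetochores, had 62.8 and 62.0, 50.6 and 50.8, 13.6, and 18.8 and 32.2, and fell by 1.53 ± 0.39 (adjusted p = 0.0438). The replicate pairs of vehicle and of dexamethasone each differed by under 1 signal unit.

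Other kinetochore genes moved less. The centromeric histone Cenpa had 182 and 126 with vehicle and 61.2 with DBZ (-1.15 ± 0.36, adjusted p = 0.078). The fibrous-corona protein Cenpf had 119 and 91.9 against 70.2, and the checkpoint protein Bub1b 68.6 and 68.2 against 47.0. Ttk, the Mps1 kinase that starts checkpoint signalling, was too dim to test and had 55.3 and 19.7 with vehicle, 48.1 and 39.8 with dexamethasone, 20.1 in the DBZ array, and 19.2 and 25.3 under the combination. The kinetochore motor Cenpe, also too dim, ran the other way, with 14.3 and 7.85 with vehicle and 22.0 to 38.2 on all other arrays. Bub3, a checkpoint protein that also has roles outside mitosis, had 499 and 637 with vehicle, 811 and 758 with dexamethasone, 783 in the DBZ array, and 653 and 746 under the combination (0.47 ± 0.22, adjusted p = 0.215). Its other tested probe set went the other way, with 97.1 and 104 with vehicle, 55.6 with DBZ and -0.73 ± 0.29 (adjusted p = 0.146), so no direction can be given for Bub3.

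Among the cyclin-CDK regulators Cks2, a small Cdk1-binding subunit, was the gene that fell. It had 777 and 490 with vehicle, 458 and 476 with dexamethasone, 205 in the DBZ array, and 242 and 434 under the combination, and changed by -1.54 ± 0.35 (adjusted p = 0.0295). Its other tested probe set had -0.16 ± 0.33 and no call (adjusted p = 0.797), so the fall rests on 1 probe set. Ccnb2, a mitotic B-type cyclin, had 290 and 158, 189 and 232, 66.5, and 89.0 and 173, and lay just outside the threshold (-1.53 ± 0.41, adjusted p = 0.0512). Cdk1, the kinase that drives entry into mitosis, had 248 and 149 with vehicle, 187 and 239 with dexamethasone, 81.8 in the DBZ array, and 61.2 and 167 under the combination (-1.12 ± 0.48, adjusted p = 0.172). Cyclin A2 (Ccna2) had 428 and 299 with vehicle and 147 with DBZ, and -1.22 ± 0.43 and -1.37 ± 0.48 by its pair of probe sets, neither of which passed. Of the activating phosphatases of Cdk1, Cdc25b had 47.4 in the DBZ array against 90.8 and 49.5 with vehicle (-0.42 ± 0.39). Cdc25c, too dim to test, had 15.4 against 23.9 and 10.6.

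Of the anaphase-promoting complex genes, Ube2c, the ubiquitin-conjugating enzyme of the complex, had 447 and 285 with vehicle, 260 and 439 with dexamethasone, 121 in the DBZ array, and 148 and 253 under the combination. It fell by 1.47 ± 0.40 with an adjusted p of 0.05, just inside the threshold. Cdc20, the activator that the checkpoint restrains, gave unequal answers by probe set. Its brightest had 434 and 348, 348 and 480, 310, and 268 and 327, with -0.32 ± 0.26 (adjusted p = 0.486). Its other tested probe set had 227 and 125, 192 and 227, 59.9, and 99.1 and 140, with -1.33 ± 0.36 (adjusted p = 0.0491). In both, the DBZ signal lay below the vehicle and dexamethasone signals.

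Spindle motors and assembly factors followed. Kif4, a chromosome-bound kinesin, had 86.4 and 61.1 with vehicle, 49.97 and 81.1 with dexamethasone, 13.9 in the DBZ array, and 50.7 and 53.9 under the combination, and fell by 1.70 ± 0.39 (adjusted p = 0.0288). Here the combination signals lay within the range of dexamethasone. Tpx2, which activates Aurora A on the spindle, had 66.5 and 62.4 with vehicle and 22.5 with DBZ (-1.14 ± 0.39, adjusted p = 0.101). The spindle and hyaluronan-binding protein Hmmr had 84.9 and 56.1 against 26.9, the bipolar spindle motor Kif11 143 and 54.2 against 40.9, and the Aurora A substrate Tacc3 81.1 and 41.7 against 28.1. The microtubule depolymerase Kif2c had 103 and 85.8 against 55.0, and the chromosome-arm kinesin Kif22 420 and 370 against 296. None of these 6 passed.

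In the last group, genes of the central spindle and of cytokinesis, Racgap1, which with Kif23 forms the centralspindlin complex, had 125 and 71.9 with vehicle, 73.1 and 123 with dexamethasone, 16.5 in the DBZ array, and 58.5 and 98.9 under the combination. It fell by 1.90 ± 0.44 (adjusted p = 0.0302), and its other tested probe set fell too (-1.72 ± 0.46, adjusted p = 0.0492). Prc1, which bundles the microtubules of the midzone, had 131 and 124, 119 and 143, 46.9, and 86.8 and 109, and fell by 1.24 ± 0.28 (adjusted p = 0.0299), also by its other probe set (-1.36 ± 0.35, adjusted p = 0.0424). Both genes had their lowest signal by far in the DBZ array. Ect2, the exchange factor that activates RhoA at the furrow, had 92.6 and 94.7 with vehicle, 34.2 with DBZ, and 63.8 and 93.8 with the combination (-1.19 ± 0.33, adjusted p = 0.0553). The ring protein Anln had 136 and 82.0 against 56.5 with DBZ, Kif23 161 and 98.1 against 80.2, and the midzone kinesin Kif20a, too dim to test, 49.6 and 35.8 against 7.77. The median of the 6 genes of the group was -1.21, close to the -1.16 of the chromosome structure genes and the -1.17 of the cyclin-CDK regulators, while the kinases and passenger genes (-0.81), the kinetochore genes (-0.84) and the spindle genes (-0.93) were less far from 0; no test was made between groups.

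**Figure D3:**
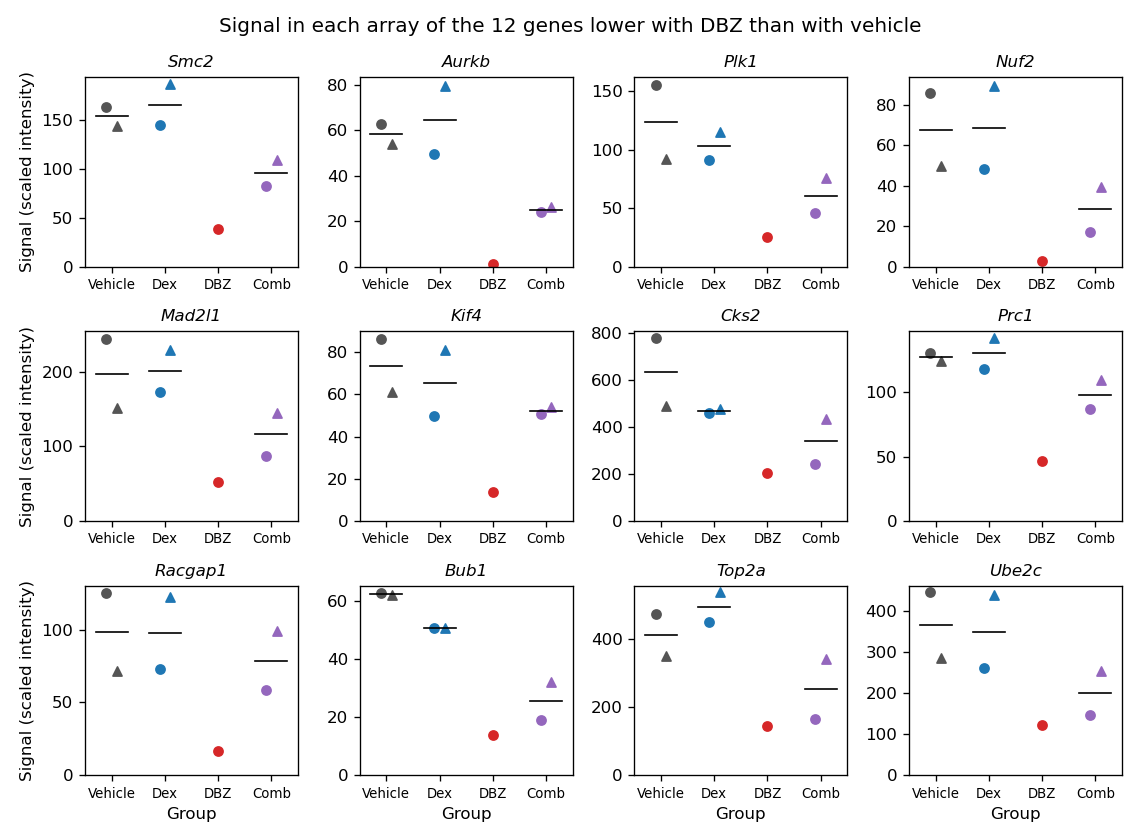
Scaled signal of the 12 genes that fell in DBZ against vehicle, with the groups on the horizontal axis; circles are replicate 1 (and the DBZ array), triangles replicate 2, and bars the means of 2 arrays. In each panel the DBZ point is the lowest of all, with 1.25 for Aurkb and 2.98 for Nuf2, and the combination points lie above it.

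The count of falls rested on vehicle replicate 1 and on the filter. Without vehicle replicate 1 it was 2, Smc2 and Aurkb, and without any other array 10. With no filter it was 2 of 41, and with a filter at the 60th percentile of signal 6 of 17. The share of all tested genes called was not counted under these alternatives. Vehicle replicate 2 lay below replicate 1 for 37 of the 41 genes, against 54.5% of all named genes. Other tissue lists moved with this comparison: summed signals, from the lowest to the highest array of each group, over 14 smooth muscle genes were 14838 and 19456 with vehicle, 29539 and 40386 with dexamethasone, 37205 in the DBZ array, and 28057 and 30081 under the combination. Those of 17 fibroblast genes were 4296 and 7256, 11239 and 13686, 11796, and 10799 and 11831, and those of 10 ileal genes 7086 and 7437, 23585 and 34867, 40630, and 18407 and 24510. In DBZ against vehicle goblet cell genes were higher for 11 of 11 tested (median 0.67, 2 called) and B and plasma cell genes for 7 of 7 (0.72, 0 called). T cell genes were lower for 4 of 4 (-0.95, 2 called) and Paneth cell genes for 5 of 7 (-0.77, 0 called). With dexamethasone alone against vehicle, goblet cell genes were also higher for 10 of 11 (0.76) and T cell genes also lower for 4 of 4 (-1.14). There, B and plasma cell genes were lower for 6 of 7 (-0.70) and Paneth cell genes higher for 5 of 7 (0.75). No marker of the smooth muscle, fibroblast and ileal lists stayed under the pseudocount on every array, and the part of these shifts and of the 3' to 5' ratios in the result was not tested.

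The promoters of the listed genes shared sequence elements that the choice of genes had not used. Genes of late cell cycle are known to be held down in resting cells by the DREAM complex at the cell cycle genes homology region, with the letters TTTGAA or close forms of them, and to be activated by NF-Y at CCAAT boxes. The RefSeq promoter table (build GRCm38.p6, 250 bases before to 50 after each start) held 38 promoters of 35 listed genes. TTTGAA stood on either strand in 73.7% of them, against 17.9% of all 32851 promoters of the table. CCAAT stood in 81.6% against 37.4%, both together in 65.8% against 6.95%, and the related TTTAAA in 23.7% against 13.2%. A CCAAT match can share at most 1 end base with a match of the other motifs, which cannot overlap each other. Of the 12 promoters of 11 genes that fell with DBZ, 66.7% held TTTGAA and CCAAT together. The promoters of the 4 genes with the smallest p in DBZ against vehicle that had an entry are shown, so that genes with and without these elements can be seen side by side, each 5′ to 3′ on the strand of the gene; capitals mark the motifs, which read ATTGG for CCAAT and TTCAAA for TTTGAA on the opposite strand.
Smc2, chr4:52438971-52439270, plus strand: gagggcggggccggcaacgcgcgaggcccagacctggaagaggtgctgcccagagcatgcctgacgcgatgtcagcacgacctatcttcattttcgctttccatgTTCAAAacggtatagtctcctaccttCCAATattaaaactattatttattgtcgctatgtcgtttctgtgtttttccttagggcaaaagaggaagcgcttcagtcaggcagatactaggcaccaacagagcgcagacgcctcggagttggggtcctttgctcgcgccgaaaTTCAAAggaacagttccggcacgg
Plk1, chr7:122159185-122159484, plus strand: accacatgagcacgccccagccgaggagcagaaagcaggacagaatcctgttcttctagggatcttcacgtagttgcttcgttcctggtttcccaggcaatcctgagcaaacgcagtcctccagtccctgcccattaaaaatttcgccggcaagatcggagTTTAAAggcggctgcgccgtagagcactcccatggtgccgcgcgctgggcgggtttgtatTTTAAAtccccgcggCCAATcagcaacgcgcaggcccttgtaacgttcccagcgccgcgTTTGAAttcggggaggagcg
Nuf2, chr1:169531415-169531714, minus strand: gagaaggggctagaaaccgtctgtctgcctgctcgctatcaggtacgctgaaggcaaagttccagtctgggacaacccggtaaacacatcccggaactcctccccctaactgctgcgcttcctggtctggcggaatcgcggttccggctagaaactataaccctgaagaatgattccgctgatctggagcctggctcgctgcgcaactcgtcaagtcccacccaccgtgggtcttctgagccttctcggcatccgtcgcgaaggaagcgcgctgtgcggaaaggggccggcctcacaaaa
Mad2l1, chr6:66534971-66535270, plus strand: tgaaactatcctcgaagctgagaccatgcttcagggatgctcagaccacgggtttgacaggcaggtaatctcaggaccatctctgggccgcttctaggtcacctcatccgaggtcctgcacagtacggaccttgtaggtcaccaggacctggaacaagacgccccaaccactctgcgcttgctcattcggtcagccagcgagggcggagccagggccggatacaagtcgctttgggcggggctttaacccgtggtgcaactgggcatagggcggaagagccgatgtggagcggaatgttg

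The Smc2 promoter carried TTTGAA on the opposite strand at 145 bases before and 26 bases after the start, with a CCAAT at 119 bases before it. In the Plk1 promoter CCAAT lay 14 bases before and TTTGAA 30 bases after the start, and TTTAAA stood 89 and 29 bases before it. The windows of Nuf2 and Mad2l1, which fell by 2.35 and 1.69, did not contain the letters of the 3 motifs.

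DBZ against dexamethasone compared the inhibitor with arrays of the same deposited scale. The vehicle arrays did not enter the log2 change, but they entered the fit that gave the p-values. All 35 tested genes had a negative log2 change, with a median of -1.12 against -0.03 over all tested genes, and the DBZ signal lay below both dexamethasone signals for 38 of 41 genes, against 38.8% of all named genes. Smc2 (-1.81 ± 0.29, adjusted p = 0.0474) and Aurkb (-2.47 ± 0.41, adjusted p = 0.0474) fell, where 0.111% of all tested genes fell. Mad2l1, Nuf2 and Top2a came next and did not pass (adjusted p = 0.0899, 0.0899 and 0.09). The unadjusted p was under 0.05 for 23 of the 35, and for 1080 of all 8094 tested genes. Bub3 was nearest to 0 by its brightest probe set, while its other one had -0.80 ± 0.29. The count was 0 when any 1 of the 6 other arrays was left out. In this comparison the smooth muscle list (median 0.09) and the fibroblast list (-0.06) had medians near 0. Ileal genes were still higher for 9 of 9 tested (0.41) and genes of the proximal list for 7 of 10 (0.42). Genes of the crypt stem list were lower for 8 of 11 (-0.55). Goblet cell genes were higher for 6 of 11 and lower for 5, with a median of 0.01. Enterocyte genes were higher for 14 of 14 tested (0.32) and B and plasma cell genes for 7 of 7 (1.32), while Paneth cell genes were lower for 6 of 7 (-1.59) and adipocyte genes for 5 of 6 (-1.37), and the part of these lists was not tested.

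With dexamethasone alone the signals of the set were near the vehicle level. Limma called 0 of 35 genes, where 12.2% of all tested genes were called. The unadjusted p was under 0.05 for 1 of the 35, and for 2169 of all 8094 tested genes. The median log2 change was 0.03, with 16 genes lower and 19 higher, and turned to -0.91 in the unscaled table, in which all probe sets together had a median of -0.92. The changes ran from -0.39 ± 0.29 for Cks2 to 0.47 ± 0.18 for Bub3 (adjusted p = 0.428 and 0.127), and the other Cks2 probe set had 0.76 ± 0.27 (adjusted p = 0.101). Mki67 had -0.18 ± 0.28, with a 95% interval from -0.80 to 0.43. The signals of the 2 groups were apart for only 3 genes downward and 3 upward, against 26.2 and 24.2% of all named genes. Other lists moved in this comparison. Smooth muscle genes were higher for 13 of 13 tested (10 called) and fibroblast genes for 15 of 17 (median 1.26, 12 called). Ileal genes were higher for 9 of 9 (2.57, 7 called), and enterocyte genes were lower for 13 of 14 (-0.40, 3 called). The part of these lists was not tested.

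With DBZ added to dexamethasone the signals of the set were lower, and no gene was called. In the combination against dexamethasone all 35 tested genes had a negative log2 change, the median was -0.51 against -0.07 over all tested genes, and both combination signals lay below both dexamethasone signals for 29 of 41 genes, against 25.7% of all named genes. The reverse order occurred for 0 of 41 genes, against 15.4% of all named genes. Limma called 0 of 35, where 0.0371% of all tested genes were called. The unadjusted p was under 0.05 for 13 of 35, and for 828 of all 8094 tested genes. Top2a (-1.02 ± 0.30, adjusted p = 0.361), Aurkb (-1.01 ± 0.34, adjusted p = 0.407), Nuf2 (-1.01 ± 0.42, adjusted p = 0.494) and Cdk1 (-0.96 ± 0.39, adjusted p = 0.484) stood farthest from 0. Ect2 (-0.12 ± 0.27) and Kif4 (-0.24 ± 0.31) stood near it. Other lists moved as well, with enterocyte genes higher for 14 of 14 tested (median 0.32), and smooth muscle genes lower for 13 of 13 (-0.26), Paneth cell genes for 6 of 7 (-0.68) and adipocyte genes for 5 of 6 (-1.22); their part was not tested.

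The combination arrays stood apart from each other. Replicate 1 was below replicate 2 for 40 of the 41 genes, against 54% of all named genes, the exception being Kif2c with 45.9 and 45.4. Replicate 1 lay below both dexamethasone arrays for 39 genes and replicate 2 for 29, against 44.2 and 39.9% of all named genes. Ccna2 had 125 and 321, Cdk1 61.2 and 167, Hmmr 26.8 and 79.6, Tpx2 36.2 and 73.2, and Bub1b 35.8 and 83.2 in the 2 arrays, so that replicate 1 was near the DBZ array (147, 81.8, 26.9, 22.5 and 47.0) and replicate 2 nearer to dexamethasone. Aurkb (24.0 and 26.3), Aurka (79.0 and 79.2), Kif4 (50.7 and 53.9) and Kif2c differed little between them. The median of the set was -0.83 against dexamethasone without replicate 2 and -0.31 without replicate 1.

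In the combination against vehicle 1 of 35 genes fell, Smc4 (-0.70 ± 0.17, adjusted p = 0.0407), where 3.5% of all tested genes fell. The median was -0.52, 33 genes had a negative change, and both combination signals lay below both vehicle signals for 20 of 41 genes, against 29.7% of all named genes. Kif2c (-0.88 ± 0.25, adjusted p = 0.063), Cks2 (-0.90 ± 0.29) and Bub1 (-1.01 ± 0.32, adjusted p = 0.0914) came next and did not pass. The count was 0 when any 1 of the 6 arrays other than DBZ was left out, and with quantile normalisation. The other Smc4 probe sets had -0.35 ± 0.20 and -0.79 ± 0.36 and did not pass. Smooth muscle genes were higher for 12 of 13 tested (median 0.91), fibroblast genes for 14 of 17 (0.97) and ileal genes for 8 of 9 (2.04), and their part was not tested.

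Dexamethasone added to DBZ was read from the combination against DBZ, which does not measure a response to DBZ. Whether that response differed with dexamethasone was asked by the interaction, described next, which uses the same DBZ array. In the combination against DBZ the median log2 change was 0.52, with 30 of 35 genes higher, and both combination signals lay above the DBZ signal for 25 of 41, against 31.7% of all named genes. Limma called 0 of 35, where 0.111% of all tested genes were called. The unadjusted p was under 0.05 for 10 of 35, and for 765 of all 8094 tested genes. Racgap1 (1.62 ± 0.44, adjusted p = 0.177), Aurkb (1.46 ± 0.41, adjusted p = 0.188), Nuf2 (1.35 ± 0.51, adjusted p = 0.323), Kif4 (1.30 ± 0.39) and Smc2 (1.09 ± 0.29, adjusted p = 0.178) were farthest above 0. Cdk1 (0.29 ± 0.48), Cenpa (0.27 ± 0.36) and Mki67 (0.34 ± 0.34) were close to it. The median was 0.93 without combination replicate 1 and 0.23 without replicate 2. Ileal genes were lower for 9 of 9 tested (-0.92), B and plasma cell genes for 7 of 7 (-0.70) and smooth muscle genes for 12 of 13 (-0.36), while Paneth cell genes were higher for 5 of 7 (0.70); their part was not tested.

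The interaction is the DBZ change with dexamethasone minus that without. It was positive for 30 of 35 genes, and for 3837 of all 8094 tested genes, with medians of 0.37 and -0.05. A positive value is a DBZ change with dexamethasone that is less negative, or more positive, than that without. Limma called 0 of 35, where 3.84% of all tested genes were called. The unadjusted p was under 0.05 for 8 of 35, and for 1626 of all 8094 tested genes. The 95% intervals, not adjusted, ran from 0.37 to 2.89 for Racgap1 (1.63 ± 0.56, adjusted p = 0.142), from 0.35 to 2.57 for Kif4 (1.46 ± 0.50, adjusted p = 0.136) and from 0.15 to 1.85 for Smc2 (1.0003 ± 0.38, adjusted p = 0.174). For Nuf2 the interval reached from -0.12 to 2.81. The interval of a typical gene was 2.15 wide on the log2 scale, so that a moderate difference was not detectable with these arrays. By role, the median was 0.96 over the 6 genes of midzone and cytokinesis and between 0.26 and 0.47 over each of the other groups. The median was 0.89 without combination replicate 1 and 0.09 without replicate 2. The median interaction was -3.39 over 9 tested ileal, -1.54 over 13 smooth muscle, -1.36 over 17 fibroblast and -0.89 over 11 goblet cell genes, and the part of these lists was not tested.

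**Figure D4:**
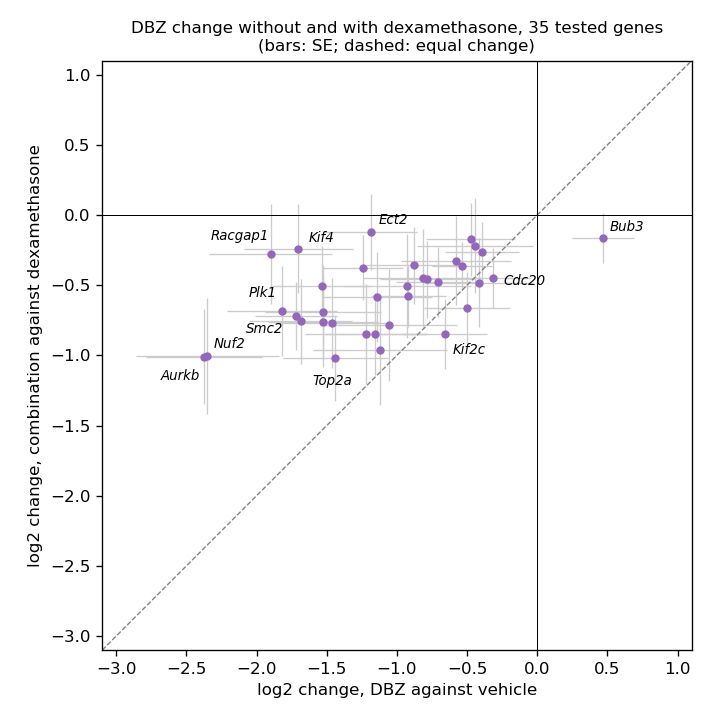
Log2 change of each of the 35 tested genes in DBZ against vehicle (horizontal) and in the combination against dexamethasone (vertical), with SE bars and a dashed line of equal change. Most points lie above the line, with Racgap1 at -1.90 and -0.27 and Kif4 at -1.70 and -0.24, while Kif2c lies below it at -0.66 and -0.85.

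Other mitotic genes outside the set behaved alike in direction. Of 57 further genes of mitosis and chromosome segregation, 44 had a probe set and 32 were tested. In DBZ against vehicle 5 fell and 1 rose, where 3.89% and 3.94% of all tested genes did, 28 had a negative change and the median was -0.80. Nusap1, a spindle-bundling protein, had 201 and 172 with vehicle, 140 and 201 with dexamethasone, 40.2 in the DBZ array, and 62.8 and 163 under the combination (-1.92 ± 0.44, adjusted p = 0.0311). Cdca3, a trigger of mitotic entry, changed by -1.69 ± 0.38, and the condensin II subunit Ncapg2 by -1.45 ± 0.34 (adjusted p = 0.0286 and 0.0313). The gene that rose was Zwint, a kinetochore protein, with 138 and 155 with vehicle and 313 to 371 on all other arrays (1.201 ± 0.23, adjusted p = 0.0153); its other tested probe sets had 0.28, 0.68 and 0.61. In the combination against dexamethasone limma called 0 of the 32, where 0.0371% of all tested genes were called. The unadjusted p was under 0.05 for 9 of the 32, and for 828 of all 8094 tested genes. A negative change was seen in 29, and the median was -0.38.

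Core subunits of the anaphase-promoting complex, which are present through the whole cell cycle, did not share the shift. Of 13 with a probe set 12 were tested, limma called 0 in DBZ against vehicle and the median was 0.13, with 4 lower and 8 higher. The unadjusted p was under 0.05 for 2 of the 12, and for 2078 of all 8094 tested genes. Among 20 tested cell cycle repressors, CDK inhibitors and regulators of late cell cycle transcription, 2 rose and 2 fell in that comparison, where 3.94% and 3.89% of all tested genes did. Btg2, an antiproliferative gene, rose by 1.16 ± 0.23 (adjusted p = 0.0176), from 343 and 428 with vehicle to 871 with DBZ. By the other tested Btg2 probe set the change was 0.66, with 376 and 445 with vehicle, 532 and 723 with dexamethasone, 653 in the DBZ array, and 705 and 738 under the combination. Cdkn1a (p21), an inhibitor of cyclin-dependent kinases, rose by 0.84 ± 0.22 (adjusted p = 0.0429), with 1596 and 1615 with vehicle, 2035 and 2638 with dexamethasone, 2880 in the DBZ array, and 2382 and 2455 under the combination. By its other tested probe set the change was 2.62, from 162 and 158 with vehicle to 1045 with DBZ, and 857 and 997 with dexamethasone. The E2F partner Tfdp1 (-1.10 ± 0.25) and the pocket protein Rbl2 (-0.86 ± 0.23) fell (adjusted p = 0.0307 and 0.0476). For all 4 genes the dexamethasone and combination signals lay on the same side of vehicle as the DBZ signal.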

How the data were processed

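Small intestine RNA was labelled with biotin and hybridised to arrays; the deposited values are MAS5 signal intensities per probe set, per the submitters' processing notes, without a version there. This table held no detection calls, and 0 columns were left unused. Signals were scaled to a trimmed mean of 250 (2% from each end), and log2(signal + 12.3) was taken, 12.3 being the 20th percentile over all arrays. Dropping 64 controls and everything with a mean under 38.8 (the 40th percentile) kept 13638 probe sets. GEO's platform annotation named 1 gene for 20393 of the 22690 probe sets, several for 691 and none for 1606, and 0 names needed an update.

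Group means were fitted in limma 3.58.1 (R 4.3.3) with an intensity trend, 3 residual and 6.83 prior degrees of freedom, and 2-sided p. DBZ, n = 1, was assumed to vary like the others. The number of arrays limits the precision. The fit was tested on simulated data. The genes, lists and comparisons were chosen with earlier results of these data known. Values per array were set to be given for called genes and for 13 chosen ones (Ccnb1 had none), up to 4 by smallest p were named from each other list, and 4 promoters by smallest p were shown. Values after ± are SE. Replicate numbers were checked as pairs; replicate differences of vehicle, dexamethasone and combination correlated at 0.05, -0.12 and 0.11, so no block was used.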

Additional observations from a re-analysis of the deposited data

Results flagged for a closer look

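A change with DBZ that differed with and without dexamethasone was found, by limma's interaction term, for 2 of the genes named here by their brightest probe sets. They were 1 of 32 tested further mitotic genes and 1 of 11 tested crypt stem genes. Of the listed genes 0 of 35 passed, of the DNA replication and G1/S genes 0 of 31, and of the repressors and CDK inhibitors 0 of 20. Of all tested genes 3.84% passed. Marker lists held more such genes, among them 8 of 9 tested ileal, 6 of 17 fibroblast and 5 of 13 smooth muscle genes, all with a negative interaction. The interaction was -1.28 ± 0.29 (SE, adjusted p = 0.0428) for the kinetochore gene Zwint, which rose to a like signal with either drug and with both. It was -1.82 ± 0.26 (adjusted p = 0.00758) for the crypt stem list's Igfbp4, a binding protein of insulin-like growth factors, with signals of 440 and 393 with vehicle, 1035 and 918 with dexamethasone, 1207 in the DBZ array, and 780 and 792 under the combination. For both genes' brightest probe sets, all treated arrays lay above vehicle. The other tested probe sets of Zwint had interactions of -0.71, -0.81 and -0.73, and those of Igfbp4 ran from -0.64 to -2.14. By a tested probe set other than the brightest, Cdkn1a had -2.80 and Rrm1 2.22.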

How the results depend on the processing

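With intensities as deposited, where vehicle arrays have a trimmed mean of 500 against 250, the calls against vehicle were 34 for DBZ (median -2.02), 25 for dexamethasone (-0.91) and 35 for the combination (-1.49), the interaction gave 22 (median 1.33), and DBZ against dexamethasone gave 0. The all-probe medians moved to -0.999, -0.92, -0.99 and 0.95. Both DBZ columns as separate arrays gave 24 for DBZ against vehicle, 19 for DBZ against dexamethasone, 3 for the combination against vehicle, 6 for the combination against DBZ and 3 for the interaction, by counting 1 array as 2. DBZ against vehicle had 2 calls of 41 without a filter and 6 of 17 with the stricter filter. DBZ against dexamethasone had 0 with quantile normalisation, a pseudocount of 32, no filter, the stricter filter, no intensity trend, only the groups compared or no vehicle arrays, and 1 without x_at and s_at probe sets. The combination against vehicle had 0 with quantile normalisation, no filter, only the groups compared or the replicate block, and 2 without the trend. The interaction had 1 with a pseudocount of 1. For these changes the cause was not tested. The share of all tested genes called was counted in the main fit only, so none can be set beside the counts under an alternative.

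Leaving out 1 array gave 2 to 10 calls for DBZ against vehicle, 0 to 0 for the combination against vehicle and for DBZ against dexamethasone, and medians of -0.83 to -0.31 for the combination against dexamethasone, 0.23 to 0.93 for the combination against DBZ and 0.091 to 0.89 for the interaction. The replicate block, fitted over vehicle, dexamethasone and combination arrays, ended the call of Smc4 (adjusted p = 0.0604) and changed no other count. Of the genes that fell in DBZ against vehicle, Smc2 passed under all 17 alternatives run for it and Aurkb under all 15. Signals near the pseudocount limit the sizes of Aurkb and Nuf2.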

Other observations

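Genes of DNA replication and of the G1/S transition, which come earlier in the cell cycle than G2 and mitosis, were lower in the DBZ array as well. Of 31 tested, 4 fell and 0 rose in DBZ against vehicle, where 3.89% and 3.94% of all tested genes did, 30 had a negative change and the median was -0.71, against -1.12 for the mitotic genes; the difference between the lists was not tested. Rrm1, a subunit of ribonucleotide reductase, had 236 and 161 with vehicle, 169 and 154 with dexamethasone, 61.7 in the DBZ array, and 92.1 and 142 under the combination (-1.49 ± 0.32, adjusted p = 0.0251). The clamp loader subunit Rfc4 (-1.48 ± 0.33), the methylation reader Uhrf1 (-1.37 ± 0.28) and the replicative helicase subunit Mcm2 (-1.10 ± 0.25) fell too (adjusted p = 0.0267, 0.0215 and 0.0281). In the combination against vehicle 3 of 31 fell, where 3.5% of all tested genes did, among them Uhrf1 (-1.18 ± 0.23, adjusted p = 0.017) and the licensing factor Cdt1 (-0.998 ± 0.20, adjusted p = 0.0185). With dexamethasone alone limma called 0 of 31, where 12.2% of all tested genes were called, and the median was -0.04. The unadjusted p was under 0.05 for 3 of the 31, and for 2169 of all 8094 tested genes.

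Of 11 tested genes of the crypt stem list 0 fell and 1, Igfbp4, rose in DBZ against vehicle, with a median of -0.58. In the combination against dexamethasone all 11 had a negative change with a median of -0.36, and limma called 0. The unadjusted p was under 0.05 for 4 of the 11, and for 828 of all 8094 tested genes.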
